A study of Mesocricetus auratus with 6 samples.

Results

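Histone and DNA modifying enzymes add, remove or interpret the chemical marks that set how accessible chromatin is. The genes described here are those whose golden hamster symbol begins with Kdm, Kmt, Hdac, Sirt, Setd, Dnmt, Tet, Prmt or Kat followed by a number, together with the Polycomb, NSD, DOT1L, EHMT, SUV39H1, p300 and UHRF1 genes named singly. The rule reads gene symbols and no measured value, and 84 of the 16078 genes listed were found. Crebbp, which the rule also names, and Dnmt3b were not analysed here. Of the 84, 80 had a mean of at least 1 FPKM in at least 1 group (fragments per kilobase of transcript, scaled to the mapped fragments of the library) and were tested. Each of the 80 passed that filter in both groups. The other 4, Dnmt3l, Kdm4d, Prmt8 and Tet1, lay under it in both.

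The libraries came from BHK21, a fibroblast-like line established from baby hamster kidney, whose label gives an age of 1 day. There were 3 libraries from cells transfected with STYK1/NOK, a membrane protein with a kinase-like domain (STYK1 1 to 3, titled N1 to N3), and 3 from cells transfected with the vector pCMV-Myc (vector 1 to 3, titled P1 to P3). RNA was taken 48 after transfection, with no unit of time in the labels. The labels give neither the share of cells that took up the plasmid nor any selection of such cells. They do not state separate cultures, so p-values reflect the scatter among the 6 libraries alone, and that scatter could be technical.

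Histone methyltransferases place methyl groups on lysines whose position decides the meaning. Methylation of H3K4 marks promoters and enhancers, that of H3K36 and H3K79 marks transcribed gene bodies, and that of H3K9, H3K27 and H4K20 marks silent or compacted chromatin. Demethylases of the LSD1 and JmjC families remove these groups, acetyltransferases open chromatin, and zinc-dependent deacetylases and the NAD-dependent sirtuins reverse acetylation. DNMT1, guided by UHRF1, copies DNA methylation after replication, and TET enzymes oxidise it.

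The FPKM values of a library summed to between 528160 and 619840, and total read numbers were not given in the sources used here. Vector 1 stood apart: on log2(FPKM + 1) its correlation with the other libraries was 0.963 to 0.976, against up to 0.993 among the others. It was the highest or lowest of the 6 libraries for 73.3% of 11464 tested genes. The fibroblast genes Vim, Fn1, Sparc and Pdgfrb were high in every library, with Vim between 3650 and 4141 FPKM, whereas Col1a1, Col1a2, Col3a1 and Thy1 lay under 1 FPKM apart from Col1a1 in vector 2, at 1.02 FPKM. Of 7 kidney epithelial markers, 6 had a group mean under 1 FPKM in both groups. Of 7 leukocyte markers, Ptprc, Adgre1, Itgam and Cd3e were at or near 0, while Cd68 and Cd14 lay between 170.1 and 351 FPKM. The hamster Styk1 gene measured 1.5, 1.80 and 1.89 FPKM with the empty vector, and 2.04, 2.46 and 2.41 FPKM in the STYK1 libraries (two-sided exact permutation test, p = 0.1, the smallest that 3 against 3 allows). The species of the transfected sequence is not in the labels, so these values do not show how much STYK1/NOK the cells made.

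RNA of 80 of the 84 genes found passed the filter, and the deacetylase genes Hdac1 and Sirt2 had the highest mean levels. Genes of these families without a matched symbol are not among the 84. The mean level over all 6 libraries ranged from 1.37 to 192 FPKM among the 80 tested members, with a median of 17.6 FPKM against 15.8 FPKM for all tested genes. At 50 FPKM or more there were 7 members: Hdac1, Sirt2, Ehmt2, Prmt1, Setd7, Hdac2 and Hdac3. Another 50 lay from 10 to under 50 FPKM and 23 under 10 FPKM.

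**Figure D1:**
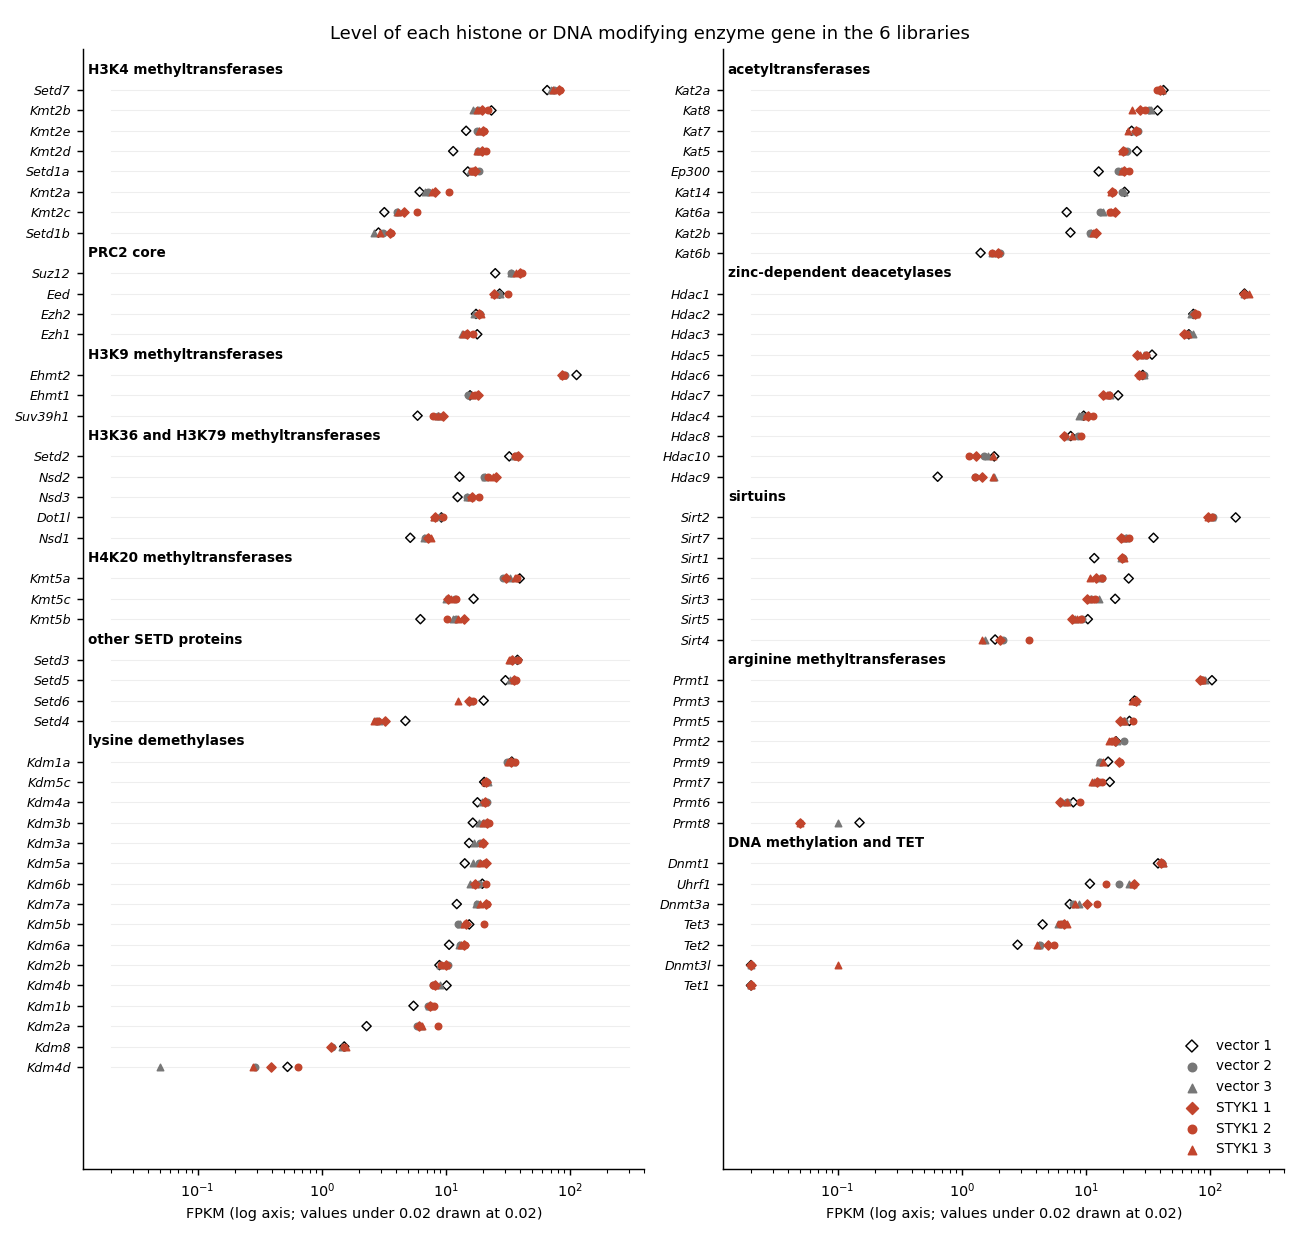
FPKM (log axis) of the 84 genes by class, in 3 vector (grey, vector 1 open) and 3 STYK1 libraries (red); symbols that coincide cover each other. Hdac1 is the highest in every library, and the open diamond of vector 1 lies apart from the rest for Kdm2a, Kat6a, Nsd2, Uhrf1 and most sirtuins.

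The comparison of STYK1/NOK with vector cells asks which of these genes differ after transfection. No member passed the test (limma-trend, 0 of 80 members and 0.0% of all 11464 genes at a Benjamini-Hochberg adjusted p under 0.05), and the members' adjusted p-values ran from 0.469 to 0.983. The largest differences were small: 0 of 80 members differed by 1.5-fold or more in mean FPKM, a size that 413 of 11464 tested genes (3.60%) reached. At an unadjusted p under 0.05 there were 7 members (8.75%, against 9.84% of all tested genes). Of these, 5 were higher in STYK1 libraries (6.25%, against 4.95%) and 2 lower (2.50%, against 4.88%). That is near the share over all genes. With library quality weights, 24 of all tested genes (0.209%) and 0 members passed the adjusted test. Without vector 1, 6 members had an unadjusted p under 0.05 (7.5%, against 9.47% of all tested genes), of which 3 were higher (3.75%, against 4.91%) and 3 lower (3.75%, against 4.57%). The count of higher members was 0 without STYK1 1 (against 1.44% of all genes) and 0 without STYK1 2 (against 1.83%). That of lower members was 4 without vector 3 (5.0%, against 7.02%) and 1 without STYK1 3 (1.25%, against 3.26%). Scaling the libraries to equal FPKM sums, which moved the median log2 difference of all genes from 0.01 to 0.12, gave 16 higher members (20%, against 11.1% of all genes) and 0 lower (against 1.88%), so that the share over all genes rose too. Median centring and quantile normalization each gave 3 higher (3.75%) and 2 lower (2.5%), against 3.51% and 6.65% of all genes with the former and 4.13% and 4.97% with the latter.

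The groups did not overlap for 27 members (33.8%, against 23.1% of all tested genes). Of these, 19 were higher in STYK1 libraries (23.8%, against 13.6%) and 8 lower (10%, against 9.44%). With equal FPKM sums these counts were 31 (38.8%, against 24.4% of all genes) and 2 (2.5%, against 3.93%), and after median centring 18 (22.5%, against 10.4%) and 11 (13.8%, against 12.5%). Without vector 1 the groups were apart for 31 members (38.8%, against 29.8%), 21 of them higher (26.2%, against 17.9%) and 10 lower (12.5%, against 11.9%). The counts were 29 higher without vector 2 (36.2%, against 19.7%) and 15 lower without STYK1 2 (18.8%, against 17.4%), fits in which 2 libraries stand against 3. The median log2 difference, STYK1 minus vector, was 0.05 over the 80 members and 0.01 over all tested genes. Above 0 were 50 members and below it 30, against 6045 and 5419 of all 11464 tested genes. STYK1 2 was the highest of the 6 libraries for 30 members (37.5%, against 21.1% of all tested genes), and vector 1 was the highest or lowest for 57 members (71.2%, against 73.3%). Vector 1 was the highest for 22 members (27.5%, against 37.1%) and the lowest for 35 (43.8%, against 36.2%).

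The 7 members with an unadjusted p under 0.05 were 3 acetyltransferase genes, 2 demethylase genes, the PRC2 gene Suz12 and the methyltransferase gene Kmt2a. Kat6a encodes MOZ, an acetyltransferase of the MYST family, and measured 7.02, 13.1 and 13.7 FPKM in vector 1 to 3, and 17.3, 15.6 and 15.9 FPKM in STYK1 1 to 3. All STYK1 libraries were above all vector libraries, and vector 1 lay at 0.524 times the mean of the other vector libraries. The log2 difference was 0.54 ± 0.22 (SE, unadjusted p = 0.0372, limma-trend adjusted p = 0.469), and 0.26 without vector 1.

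Suz12, the scaffold subunit of Polycomb repressive complex 2 (PRC2), measured 25.1, 33.4 and 33.6 FPKM with the empty vector, and 39.8, 41.4 and 37.0 FPKM in the STYK1 libraries. The groups did not overlap, and the ratio of means was 1.28. The log2 difference was 0.36 ± 0.13 (SE, unadjusted p = 0.0202, limma-trend adjusted p = 0.469) with a 95% interval of 0.07 to 0.65, and 0.23 without vector 1 (unadjusted p = 0.0121).

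The 3 other members that were higher in STYK1 libraries act on lysine methylation. Kmt2a encodes MLL1, which methylates H3K4, and measured 6.16, 7.19 and 6.81 FPKM with the empty vector, and 8.24, 10.6 and 7.80 FPKM with STYK1. Kdm5a, a demethylase of trimethylated H3K4, measured 14.2, 18.4 and 16.7 against 20.9, 20.9 and 18.7 FPKM in the same order. Kdm7a, which demethylates H3K9 and H3K27, measured 12.3, 18.0 and 17.6 against 20.9, 21.3 and 18.7 FPKM. In each of the 3 genes the lowest STYK1 library was above the highest vector library, by a margin under 1 FPKM, and vector 1 was the lowest of the 6. Without vector 1 their unadjusted p-values were 0.0620, 0.0612 and 0.0597.

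The lower members were acetyltransferase genes. Kat14, a subunit of the ATAC acetyltransferase complex, had the smallest p of all members (rank 137 of 11464 genes) and measured 20.6, 19.5 and 20.4 FPKM with the empty vector, and 16.3, 16.7 and 15.9 FPKM with STYK1. Libraries of a group lay close together, and the difference hardly moved when vector 1 was left out: the log2 value was -0.29 ± 0.09 (SE, unadjusted p = 0.0103, limma-trend adjusted p = 0.469) with it and -0.28 without it (unadjusted p = 0.00624). Kat8 encodes MOF, which acetylates H4K16, and measured 38.0, 32.6 and 33.9 FPKM against 27.3, 30.1 and 23.5 FPKM, a log2 difference of -0.36 ± 0.11 (SE, unadjusted p = 0.0132) and of -0.30 without vector 1 (unadjusted p = 0.0196). With equal FPKM sums the log2 differences were -0.18 for Kat14 and -0.25 for Kat8.

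**Figure D2:**
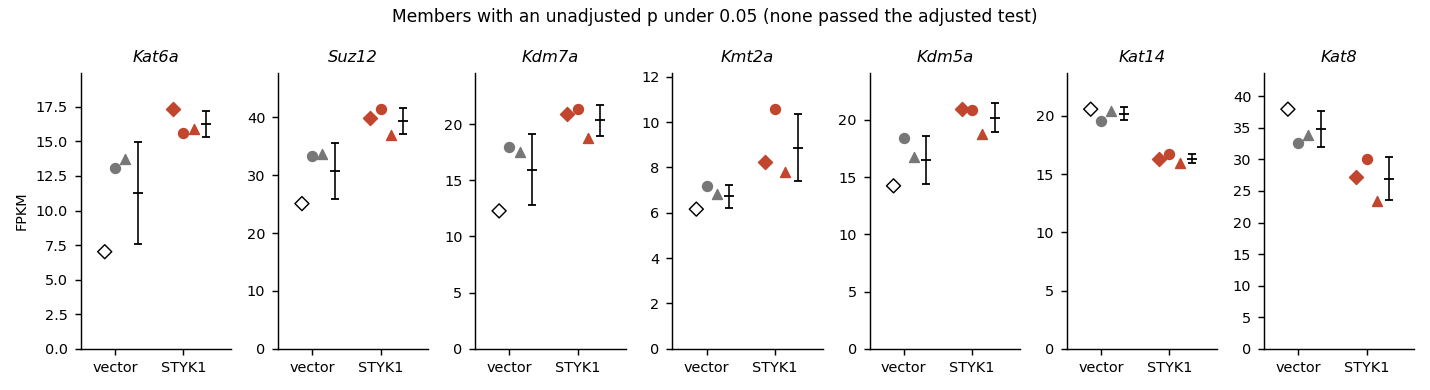
FPKM of the 7 members with an unadjusted p under 0.05 in each library (symbols as in the plot of levels; bars give the mean and SD, n = 3 per group; each vertical axis starts at 0). The groups do not overlap in any panel, and vector 1 is the lowest library in the 5 panels with higher STYK1 values.

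Among the genes classed here as methyltransferases of H3K4, all 8 log2 differences were above 0 under each scaling tried. Of all 11464 tested genes, 6045 were above 0 in the fit reported, 5388 after median centring and 5679 after quantile normalization. With equal FPKM sums 8065 were above 0, of the 11451 genes that passed the filter both with and without that scaling. The median of the class was 0.19, and 0.15 without vector 1. There 7 of 8 were above 0, against 6370 of all genes tested both with and without vector 1. Unadjusted p-values under 0.05 numbered 1 of 8, that of Kmt2a. Kmt2c and Kmt2d, which monomethylate H3K4 at enhancers, measured 3.20, 4.03 and 4.07 against 4.60, 5.83 and 4.11 FPKM, and 11.5, 18.1 and 18.2 against 19.6, 21.3 and 17.9 FPKM. Kmt2c did not overlap between the groups and Kmt2d did. Groups were apart for 3 of the 8 genes, all with higher STYK1 values, against 13.6% of all tested genes. Kmt2b was highest in vector 1, at 23.4 FPKM, and lay between 16.6 and 21.8 FPKM elsewhere. STYK1 2 was the highest library for 6 of the 8 genes. Setd7, a monomethyltransferase of H3K4 and of non-histone proteins, had the highest level of the class, at 70.2 ± 4.26 FPKM with the empty vector, and 79.6 ± 5.96 FPKM with STYK1 (SD, n = 3). Setd1b, a catalytic subunit of a COMPASS complex, had the lowest at 2.87 ± 0.255 against 3.37 ± 0.361 FPKM. Its relative Setd1a measured 16.4 ± 1.84 against 16.7 ± 0.334 FPKM. Kmt2e, at 17.0 ± 2.06 against 19.7 ± 0.958 FPKM with groups apart, is in this class by its symbol. No activity on H3K4 was measured here for it or the other genes.

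Of the PRC2 core, which methylates H3K27, Suz12 had the difference given before, and its 3 partners had log2 differences between -0.02 and 0.08. The catalytic subunit gene Ezh2 measured 17.6, 18.9 and 16.8 FPKM with the empty vector, and 18.5, 18.7 and 19.3 FPKM with STYK1, with overlapping groups and a log2 difference of 0.08 ± 0.09 (SE, 95% interval -0.13 to 0.29). Ezh1, the alternative catalytic subunit, measured 15.4 ± 2.26 against 15.1 ± 1.46 FPKM. Eed, which binds the methylated product, measured 27.2 ± 0.172 against 27.0 ± 4.04 FPKM, with STYK1 2 alone above the vector libraries at 31.7 FPKM. Whether the difference of Suz12 is larger than that of its partners was not tested.

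Of 3 genes for H3K9 methylation, 1 had groups that were apart, with higher STYK1 values, against 13.6% of all tested genes. Ehmt1 (GLP) lay at 15.7, 15 and 15.7 FPKM with the empty vector, and at 18.2, 17.2 and 16.4 FPKM with STYK1, a log2 difference of 0.15 ± 0.09 (SE, unadjusted p = 0.147). Its partner Ehmt2 (G9a) had a far higher level, with 114 FPKM in vector 1 and 86.9 to 91.7 FPKM in the other 5. Suv39h1, which trimethylates H3K9 in heterochromatin, lay at 5.93 FPKM in vector 1 and at 7.84 to 9.52 FPKM elsewhere. For Ehmt2 and Suv39h1 the log2 differences were -0.13 and 0.16 with all libraries, and -0.02 and 0.00335 without vector 1.

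Of 5 genes that methylate H3K36 and H3K79, the 3 NSD genes stood apart by group, with higher STYK1 values. Over all tested genes 13.6% did so. Nsd2, which dimethylates H3K36, measured 12.9, 20.4 and 20.9 FPKM with the empty vector, and 25.5, 21.8 and 23.9 FPKM with STYK1, a log2 difference of 0.40 ± 0.18 (SE, unadjusted p = 0.0513) and of 0.19 without vector 1. Nsd1 and Nsd3 were listed at 5.18, 6.77 and 6.74 against 7.21, 7.20 and 7.59 FPKM, and at 12.5, 14.9 and 14.9 against 16.2, 18.5 and 15.9 FPKM. The groups of all 3 NSD genes did not overlap, and vector 1 was the lowest library in each. The median of the class was 0.21, and 0.10 without vector 1. Setd2, which trimethylates H3K36, measured 34.9 ± 2.15 against 37.4 ± 1.31 FPKM, and Dot1l, the H3K79 methyltransferase, 8.78 ± 0.668 against 8.54 ± 0.825 FPKM.

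The H4K20 genes and the remaining SETD genes had no member with an unadjusted p under 0.05. Kmt5a, which monomethylates H4K20 around mitosis, measured 39.5, 28.9 and 32.8 FPKM with the empty vector, and 30.7, 37.3 and 35.9 FPKM with STYK1. Kmt5b and Kmt5c add further methyl groups, and vector 1 was the lowest library for Kmt5b, at 6.25 FPKM against 10.3 to 14.0 FPKM in the others. For Kmt5c it was the highest, at 16.8 FPKM against 10.1 to 12.1 FPKM. Setd3, which methylates a histidine of actin, measured 36 ± 2.79 against 34.9 ± 3.04 FPKM. Setd5 lay at 32.9 ± 2.59 against 36.2 ± 0.858 FPKM. It was the 1 of 4 remaining SETD genes with groups apart and higher STYK1 values, against 13.6% of all tested genes. Setd6 and Setd4 were highest in vector 1, at 20.2 and 4.73 FPKM, against 12.5 to 16.7 and 2.66 to 3.25 FPKM elsewhere.

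Demethylase genes had log2 differences above 0 for 13 of 15 tested members, against 6045 of all 11464 tested genes. The median log2 difference was 0.18, and 0.09 without vector 1. Groups did not overlap for 5 of the 15 (33.3%), all higher in STYK1 libraries, a pattern that 13.6% of all tested genes had: Kdm1b, Kdm3a, Kdm5a, Kdm6a and Kdm7a. Vector 1 was the lowest library for 10 of the 15 and STYK1 2 the highest for 8. The largest log2 difference of the class was that of Kdm2a, an H3K36 demethylase, whose groups overlapped. It measured 2.30, 5.85 and 6.34 FPKM in vector 1 to 3, and 6.06, 8.64 and 6.48 FPKM in the STYK1 libraries. Its log2 difference of 0.54 ± 0.30 (SE, limma-trend unadjusted p = 0.105) became 0.17 without vector 1. Kdm3a, which demethylates H3K9, measured 15.4, 18.9 and 16.8 against 20, 19.9 and 19.7 FPKM. Kdm6a (UTX), which demethylates H3K27, measured 12.2 ± 1.34 against 13.9 ± 0.591 FPKM with groups apart. Its relative Kdm6b measured 17.9 ± 2.13 against 18.5 ± 2.10 FPKM, with overlapping groups.

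Kdm1a (LSD1), the demethylase of CoREST complexes, had the highest level of the class, at 33.5 ± 1.94 against 34.0 ± 2.36 FPKM, and a log2 difference of 0.02 ± 0.09 (SE, 95% interval -0.19 to 0.23). Kdm5b measured 15.5, 12.6 and 13.1 FPKM with the empty vector, and 14.5, 20.5 and 14.0 FPKM with STYK1, so that STYK1 2 stood out. Kdm4a, which acts on H3K9 and H3K36, measured 19.7 ± 1.68 against 20.7 ± 0.106 FPKM. The lowest member of the class past the filter was Kdm8, at 1.39 ± 0.163 against 1.41 ± 0.204 FPKM, and Kdm4b had the lowest log2 difference, at -0.14. Kdm4d lay between 0.05 and 0.65 FPKM and was not tested.

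Of 9 acetyltransferase genes, 3 had STYK1 libraries all above the vector libraries (Kat6a, Kat2b and Ep300) and 3 all below (Kat14, Kat8 and Kat5). Over all tested genes the shares were 13.6% above and 9.44% below. Ep300 encodes the coactivator p300 and measured 12.7, 18.3 and 19.1 FPKM against 20.5, 22.5 and 19.5 FPKM, a log2 difference of 0.32 ± 0.15 (SE, unadjusted p = 0.0685) and of 0.15 without vector 1. Kat2b (PCAF) measured 7.53, 10.9 and 11.1 against 12.2, 12 and 11.5 FPKM, whereas its paralog Kat2a (GCN5) lay at 40.8 ± 1.92 against 39.6 ± 1.80 FPKM with overlapping groups. Kat5 (TIP60), which acts in transcription and DNA repair, measured 25.9, 21.7 and 20.7 against 20, 20.4 and 19.6 FPKM. Kat7 (HBO1), an H3 and H4 acetyltransferase, measured 24.8 ± 1.43 against 24.3 ± 2.09 FPKM. Kat6b had the lowest level, at 1.74 ± 0.310 against 1.89 ± 0.124 FPKM. The median of the class was -0.03, and 0.08 with equal FPKM sums.

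The zinc-dependent deacetylases had log2 differences from -0.16 to 0.19, and 0 of 10 had an unadjusted p under 0.05. Groups were apart for 2 with higher STYK1 values and 3 with lower, against 13.6% and 9.44% of all tested genes. Hdac1, the most abundant member of all, measured 190.6, 189.5 and 188.6 FPKM with the empty vector, and 188.4, 188.7 and 206.6 FPKM with STYK1. STYK1 3 was the highest, and the other 5 lay between 188.4 and 190.6 FPKM. Its paralog Hdac2, which shares the same corepressor complexes, measured 73.8, 73.3 and 70.4 against 76.4, 78.3 and 77.5 FPKM with groups apart, and Hdac3, the deacetylase of NCoR complexes, measured 67.9, 67.6 and 72.8 against 61.9, 64.5 and 66.5 FPKM with groups apart in the other direction. The log2 differences of Hdac1, Hdac2 and Hdac3 were 0.04, 0.09 and -0.11, and with equal FPKM sums 0.15, 0.20 and 0.00168. Of the deacetylases that shuttle between nucleus and cytoplasm, Hdac4 was higher in every STYK1 library (9.24 ± 0.423 against 10.7 ± 0.737 FPKM) and Hdac7 lower (16.5 ± 1.55 against 14.7 ± 0.842 FPKM). For Hdac7 the margin was narrow, with STYK1 2 at 15.5 and vector 2 at 15.54 FPKM. Hdac6, a tubulin deacetylase, was lower in every STYK1 library, at 29.3 ± 0.415 against 27.5 ± 0.718 FPKM. With equal FPKM sums the log2 differences of Hdac4, Hdac6 and Hdac7 were 0.29, 0.02 and -0.04. The genes apart and lower were then 0 of 10, against 3.93% of all genes. Hdac5 measured 31.5 ± 2.44 against 28.1 ± 2.49 FPKM, Hdac10 1.66 ± 0.161 against 1.41 ± 0.332 FPKM, and Hdac9, the lowest of the class, 1.25 ± 0.586 against 1.5 ± 0.259 FPKM.

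Of 7 sirtuin genes, 5 were highest in vector 1 and 1 was lowest there, against 37.1% and 36.2% of all tested genes. Sirt2, a mainly cytoplasmic deacetylase, measured 162 FPKM in vector 1, 107 and 104 FPKM in vector 2 and 3, and 96.7, 104 and 96.8 FPKM in the STYK1 libraries. Sirt6 and Sirt7, of the nucleus and nucleolus, were likewise highest in vector 1, at 22.2 and 35.2 FPKM in vector 1 against 10.9 to 13.4 and 19.3 to 22.2 FPKM in the other 5. The mitochondrial sirtuins Sirt3 and Sirt5 were also highest in vector 1, at 17.3 and 10.4 FPKM. Sirt1, the nuclear deacetylase, ran the other way, with 11.7 FPKM in vector 1 and 19.1 to 20.2 FPKM in the other 5. The lowest of the family, Sirt4, measured 1.86, 2.14 and 1.55 against 2.02, 3.46 and 1.45 FPKM. Summed over the 7 genes, the FPKM were 261, 183 and 180 in vector 1 to 3, and 168, 184 and 169 in the STYK1 libraries. The median log2 difference of the family was -0.26, and -0.04 without vector 1, with 0 of 7 genes at an unadjusted p under 0.05 and 0 of 7 with groups apart in either case. After median centring 2 of 7 were apart and lower (against 12.5% of all genes), and after quantile normalization 1 (against 9.26%). With equal FPKM sums 1 was apart and higher (against 24.4%).

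**Figure D3:**
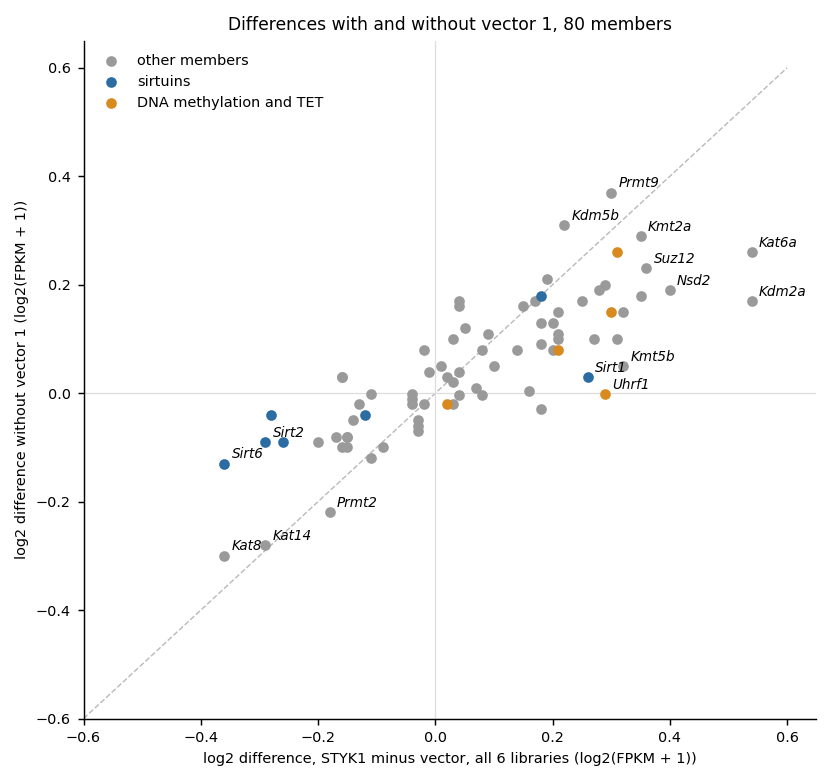
Log2 difference, STYK1 minus vector, of the 80 tested members with all 6 libraries (horizontal) and without vector 1 (vertical); the dashed line marks equal values. Uhrf1 and the sirtuins (blue) other than Sirt4 lie nearer to 0 on the vertical axis, whereas Sirt4 and Kat14 lie close to the line and Prmt9 and Prmt2 outside it.

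Of 7 tested arginine methyltransferases, 2 were lower in every STYK1 library than in any vector library, against 9.44% of all tested genes. Prmt1, which places most asymmetric dimethylarginine, measured 104, 88.8 and 92.4 FPKM with the empty vector, and 84.1, 85.9 and 86.9 FPKM with STYK1, and Prmt2 measured 17.5, 20.3 and 17.9 against 17.1, 16.4 and 15.4 FPKM. Prmt9, which methylates a splicing factor, had the highest log2 difference of the family, at 15.2, 13.1 and 12.8 against 18.6, 19.0 and 13.9 FPKM, and its groups overlapped only because STYK1 3 lay under vector 1. The log2 difference of Prmt9 was 0.30 ± 0.14 (SE, unadjusted p = 0.0630), and 0.37 without vector 1 (unadjusted p = 0.0229). Prmt5, the main symmetric enzyme, measured 21.1 ± 1.22 against 21.1 ± 2.64 FPKM, a log2 difference of -0.01 with a 95% interval of -0.26 to 0.25. Prmt3 measured 25.2 ± 0.373 against 24.6 ± 0.975 FPKM, Prmt6, the lowest past the filter, 7.15 ± 0.758 against 7.38 ± 1.45 FPKM, and Prmt7 13.4 ± 2.04 against 12.3 ± 1.13 FPKM. Prmt8 measured 0.05 to 0.15 FPKM and was not tested. The median of the 7 tested genes was -0.03, and 0.07 with equal FPKM sums. With that scaling the log2 differences of Prmt1 and Prmt2 went from -0.15 and -0.18 to -0.04 and -0.07. The genes apart and lower were then 0 of 7, against 3.93% of all genes.

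For DNA methylation, the maintenance enzyme Dnmt1 lay close together in all libraries, at 38.3, 41.2 and 41.8 FPKM with the empty vector, and 40.3, 40.4 and 42.0 FPKM with STYK1. Its partner Uhrf1, which binds hemimethylated DNA, spread more widely and measured 10.8, 18.7 and 22.4 FPKM with the empty vector, and 24.4, 14.6 and 24 FPKM with STYK1. Vector 1 and STYK1 2 were thus the lowest, and the log2 difference of 0.29 ± 0.28 (SE) was -0.00202 without vector 1. The same libraries were lowest for a list of 15 proliferation genes, among them Mki67, Top2a and Pcna, whose mean log2 level relative to the vector mean was -0.47, 0.19 and 0.29 in vector 1 to 3, and 0.37, 0.00179 and 0.41 in STYK1 1 to 3. The part of proliferation in the level of Uhrf1 was not tested. The de novo enzyme Dnmt3a measured 7.43, 7.89 and 8.77 against 10.3, 12.3 and 8.26 FPKM, with STYK1 3 inside the vector range, a log2 difference of 0.31 ± 0.15 (SE, unadjusted p = 0.0741). Its cofactor Dnmt3l measured 0 in 5 libraries and at 0.10 FPKM in STYK1 3.

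The TET enzymes were low. Tet2 measured 2.82, 4.29 and 4.23 against 4.98, 5.54 and 4.04 FPKM, and Tet3 4.49, 6.49 and 6.03 against 6.63, 6.23 and 7.12 FPKM. Tet1 measured 0 or 0.02 FPKM. For Tet2 and Tet3 vector 1 was the lowest library and the groups overlapped. The median log2 difference of the 5 tested genes of DNA methylation and oxidation was 0.29, and 0.08 without vector 1.

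**Figure D4:**
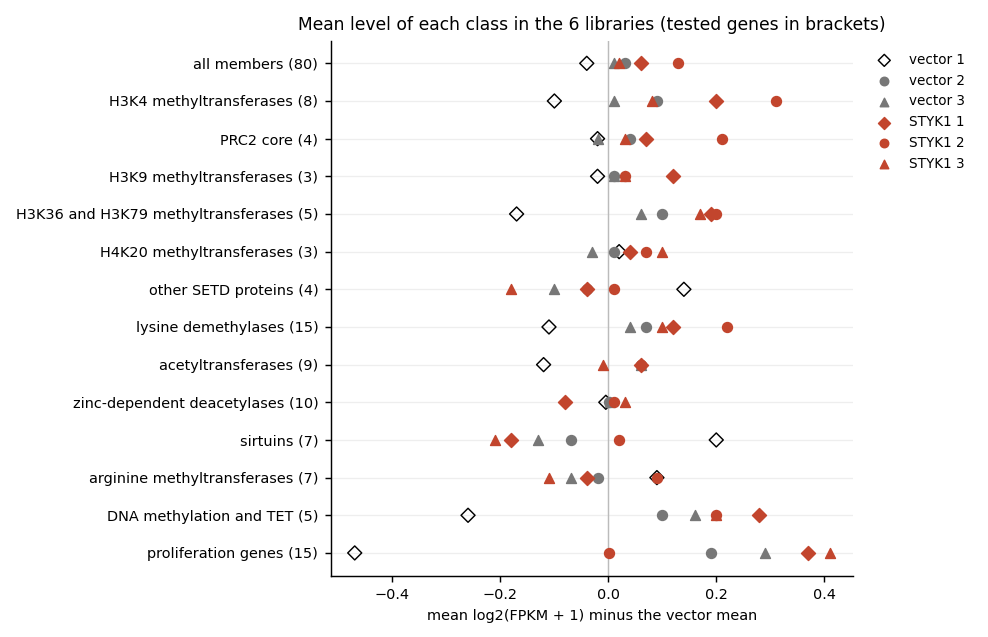
Mean log2(FPKM + 1) of the tested genes of each class in each library, minus the mean of the vector libraries, with the 15 proliferation genes in the bottom row; symbols that coincide cover each other. Vector 1 (open) lies far from the other libraries for sirtuins, DNA methylation and TET genes and proliferation genes, and STYK1 2 is the highest for H3K4 methyltransferases, the PRC2 core and demethylases.

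Proteins that work with these enzymes were followed through lists written from general knowledge, in which 0 genes passed the adjusted test. Their counts at an unadjusted p under 0.05 stand against 4.95% of all tested genes higher and 4.88% lower. Among PRC2 partners 8 of 9 log2 differences were above 0, against 6045 of all 11464 tested genes. Their median was 0.18, and 0.07 without vector 1, and 0 of 9 had an unadjusted p under 0.05. Groups were apart for 4 of the 9, all with higher STYK1 values, against 13.6% of all tested genes. Among them were Aebp2, Jarid2 and Lcor, accessory subunits or partners, with Aebp2 at 34.2, 35.9 and 34.9 against 40.1, 43.6 and 37.5 FPKM. Among 15 PRC1 genes, whose complex ubiquitinates H2A, 2 were higher and 1 lower at an unadjusted p under 0.05. Rnf2 (RING1B), the ligase, measured 23.5, 28.8 and 28.0 against 33.7, 35.1 and 32.1 FPKM, and Phc3 measured 11.8 ± 1.37 against 15.3 ± 0.983 FPKM. Pcgf1, of a variant PRC1, measured 16.7, 15.5 and 15.1 against 13.2, 9.70 and 9.76 FPKM, a log2 difference of -0.51 ± 0.13 (SE, unadjusted p = 0.00503). All 3 had groups that did not overlap. Over the 15 genes this held for 4 higher and 1 lower, against 13.6% and 9.44% of all tested genes.

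Of 12 partners of the H3K4 methyltransferases, Psip1 (71.8 ± 6.88 against 85.5 ± 6.62 FPKM) was higher and Dpy30 (102 ± 16.2 against 82.5 ± 7.89 FPKM) lower at an unadjusted p under 0.05. Of 20 deacetylase corepressor genes, 2 were higher: Gatad2b of the NuRD complex (16.0 ± 2.09 against 21.2 ± 1.93 FPKM) and the corepressor Ncor1 (26.2 ± 1.48 against 30.9 ± 2.71 FPKM). Of 31 acetyltransferase partners, 1 was higher and 0 lower. It was Msl2, of the MSL complex that holds MOF, at 9.05, 13.5 and 15.6 against 17.8, 18.1 and 16.2 FPKM, while Kat8 itself had the lower values given before.

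Of 22 other writers and erasers, 2 were higher and 0 lower at an unadjusted p under 0.05: Jmjd1c (13.2 ± 2.30 against 17.9 ± 2.37 FPKM) and the H3K9 methyltransferase Suv39h2 (1.99 ± 0.208 against 3.08 ± 0.845 FPKM). The 14 readers and partners of DNA methylation held 4 higher and 1 lower, and 1 higher and 1 lower without vector 1. The thymine glycosylase Mbd4 measured 2.13, 2.71 and 2.31 against 3.83, 3.42 and 3.50 FPKM, and the remodeller Hells 2.39, 4.47 and 4.07 against 6.06, 4.56 and 5.76 FPKM. Idh1, which makes the alpha-ketoglutarate that TET and JmjC enzymes use, was the lower gene, at 94.4, 86.4 and 73.9 against 65.9, 66.4 and 63.2 FPKM. Of 7 heterochromatin genes, Atrx (31.6 ± 6.49 against 43.0 ± 3.65 FPKM) and Cbx1 (52.6 ± 6.87 against 64.0 ± 1.10 FPKM) were higher at an unadjusted p under 0.05. Without vector 1 the log2 differences of several of these genes were smaller: that of Msl2 went from 0.45 to 0.24, of Hells from 0.50 to 0.29, of Atrx from 0.45 to 0.27, of Cbx1 from 0.28 to 0.17, of Jmjd1c from 0.42 to 0.28, of Lcor from 0.37 to 0.17 and of Dpy30 from -0.29 to -0.17. The unadjusted p-values of Hells, Suv39h2 and Dpy30 were then 0.0738, 0.0941 and 0.0756.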

How the data were processed

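The 6 RNA sequencing libraries of transfected BHK21 cells, 3 per group, were each deposited as a table of FPKM with 2 decimals, per the file headers. RNA was extracted with Trizol and libraries were made with an Illumina TruSeq kit, per the labels' protocols. The submitters' processing notes name Bowtie 0.12.2 and the mouse builds mm8 and mm9 with no role, while the row names match NCBI Gene IDs of the golden hamster, so the genome behind the FPKM values the authors deposited is not settled. No source used here gives strand use or the treatment of shared reads, so levels of close paralogs and overlapping genes are uncertain. Of 16078 IDs, 15049 had a symbol in a RefSeq table made from BCM_Maur_2.0, used for names only.

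Each library was assigned to a group by its treatment label. The 11464 genes whose mean reached 1 FPKM in either group were tested on log2(FPKM + 1) with limma-trend and robust empirical Bayes (limma 3.58.1 in R 4.3.3), 3 STYK1 against 3 vector libraries, with Benjamini-Hochberg adjustment over all of them. Log2 differences on this scale understate those of low genes. An interval is the 95% interval of that fit. Total counts were not used here, so the depth is unknown and no counting interval is given. A check of the fit used simulated data with independent noise and log2 changes larger than those of any member. It held no outlying library such as vector 1, so it does not show how well small differences here would be found. The rule for members reads symbols alone, but the members and lists were chosen with earlier results of these data known. Named were fixed key enzymes, up to 10 members per direction with the smallest p and groups that do not overlap, the extremes of each class in level and difference, every member under the filter, and up to 3 genes of smallest p in each partner list. Counts and medians over members describe the fit and have no test of their own. Alternatives covered the pseudocount, the filter, the scaling, a replicate block, library weights, ordinary empirical Bayes and each library left out.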

Additional observations from a re-analysis of the deposited data

How the results depend on the processing

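No member passed an adjusted p under 0.05 in the fit reported or in any of the 16 alternatives (limma-trend), and the smallest adjusted p of any member ran from 0.0838 with library quality weights, which gave vector 1 a weight of 0.129, to 0.803. Over all genes the calls were 24 with those weights and 0 to 2 with a library left out. Members with an unadjusted p under 0.05 and higher STYK1 values numbered 3 with no filter (3.75%, against 3.81% of all genes), 16 with equal FPKM sums (20%, against 11.1%), 3 after median centring (against 3.51%), 3 after quantile normalization (against 4.13%) and 11 with weights (13.8%, against 10.5%). With a library left out they numbered 0 to 7, against 1.44% to 7.86% of all genes. Those with lower values numbered 0 with equal sums (against 1.88%), 4 with weights (5.0%, against 10.1%) and 1 to 4 with a library left out (against 1.65% to 7.02%). Members with groups apart numbered 31 higher (38.8%, against 24.4%) and 2 lower (2.5%, against 3.93%) with equal sums. With a library left out they numbered 20 to 29 higher (against 16.6% to 20.6%) and 8 to 15 lower (against 11.4% to 17.4%).

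Equal FPKM sums moved the median log2 difference to 0.12 for all genes, 0.15 for the members, 0.30 for H3K4, 0.14 for PRC2, 0.25 for H3K9 and 0.15 for H4K20 genes, 0.28 for demethylases, 0.08 for acetyltransferases, 0.07 for zinc-dependent deacetylases and 0.07 for arginine methyltransferases. Relative to the median of all genes these shifts left the members at 0.04, against 0.03 in the fit reported. Median centring gave -0.01 for all genes and 0.01 for H4K20 genes, and quantile normalization -0.00186 for all genes and 0.09 for H3K9 genes. Weights gave 0.08 for H3K9, 0.11 for H3K36 and H3K79 and 0.11 for H4K20 genes, 0.07 for demethylases and -0.10 for zinc-dependent deacetylases. With a library left out the medians ran from 0.04 to 0.10 for the members, 0.00335 to 0.16 for H3K9, 0.10 to 0.27 for H3K36 and H3K79 and -0.06 to 0.12 for H4K20 genes, -0.18 to 0.01 for other SETD genes, 0.08 to 0.20 for demethylases, -0.07 to -0.01 for zinc-dependent deacetylases, -0.39 to -0.04 for sirtuins and 0.08 to 0.37 for DNA methylation and TET genes. The cause of these shifts was not tested. Without vector 1, the log2 difference of 38 members was smaller by over 1.5 times, of 8 larger by over 1.5 times, of 24 within 1.5 times and of 10 of the other sign.

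Replicate numbers are shared between the groups, but the labels do not say that they mark shared cultures, and libraries with the same number did not deviate together (correlations of -0.273, -0.156 and 0.113 over genes). With the replicate number as a block, 4 members had an unadjusted p under 0.05 and higher values (5.0%, against 3.93%), 2 lower (2.5%, against 3.32%), and 0 passed the adjusted test. The pseudocounts, the filter on the mean over all libraries and ordinary empirical Bayes left the members' counts as they were. Removal of a trend on protein length, planned as a further alternative, was not run because no protein lengths were used here. With 3 libraries per group and an unknown depth, differences of the size seen here were not separable from the spread between libraries after adjustment.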

Other observations

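Ratios of FPKM within a library do not change when all its values are multiplied by a common factor, though quantile normalization can change them. The 9 pairs given here, of 14 computed, were chosen after their values were seen, and they are values with no test. The pairs left out, Kdm6a over Kdm6b, Prmt1 over Prmt5, Kat2a over Kat2b, Tet3 over Tet2 and Nsd2 over Nsd1, all had overlapping groups. How often the ratios of other gene pairs lie apart was not computed. Suz12 over Eed, subunits of the same complex, was 0.922, 1.24 and 1.23 in vector 1 to 3, and 1.61, 1.31 and 1.5 in STYK1 1 to 3, so that the groups did not overlap. Ehmt2 over Ehmt1, which form a heterodimer, was 7.23, 6.10 and 5.61 with the empty vector, and 4.79, 5.26 and 5.37 with STYK1, again without overlap. Kat6a over Kat6b was 4.94, 6.41 and 7.80 against 8.84, 8.92 and 8.06 in the same order.

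Hdac1 over Hdac3 lay at 2.81, 2.80 and 2.59 with the empty vector, and at 3.04, 2.93 and 3.11 with STYK1, with the groups apart. Hdac1 over Hdac2, between 2.41 and 2.68, overlapped. Ezh2 over Ezh1 was 0.977 in vector 1 and 1.12 to 1.41 in the other 5 libraries. Sirt2 over Sirt1 was 13.8 in vector 1 and 4.80 to 5.44 elsewhere, and Kmt5a over Kmt5b was 6.32 in vector 1 and 2.20 to 3.61 elsewhere. Dnmt1 over Uhrf1 was highest in vector 1, at 3.54, and in STYK1 2, at 2.78, and 1.65 to 2.20 in the other 4 libraries.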
